A study of Mus musculus with 6 samples.

Results

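Imprinted genes are transcribed mainly from 1 parental allele. A list of 42 of them, on 10 chromosomes and in 20 imprinted clusters, was looked up in the GENCODE annotation of the mouse genome (release M21, build GRCm38), in which each of the 42 symbols matched 1 gene among 55413 genes of any type. The genes were chosen by name. Each gene was compared with the H3K27ac peaks of control mouse embryonic stem cells (mESCs).

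H3K27ac, the acetylation of lysine 27 of histone H3, is found at active promoters and enhancers, and was measured by chromatin immunoprecipitation and sequencing (ChIP-seq). The cells were E14Tg2A mESCs carrying Rosa26-Cre and Oct4-IRES-Puro, kept in N2B27 medium with LIF and inhibitors of MEK and GSK3, and all groups shared this line and medium. Control cells received DMSO, and the other 2 groups received for 120 min either 100 nM NVP-2 or 800 nM actinomycin D (ActD). NVP-2 inhibits the elongation kinase CDK9, and ActD binds DNA and so blocks transcription by RNA polymerase II. Each group had 2 replicates, with human HEK293 chromatin added as a spike-in. The values described are the 22973 peaks that the authors called on the control replicates together. The list gives positions only, so it has no replicate error, no height and no depth, and the treated groups were not analysed here.

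In mammals, germline differentially methylated regions (DMRs) are methylated in the egg or the sperm and keep this methylation on 1 allele after fertilisation. They act as imprinting control regions, and many are themselves the promoter of a paternally expressed gene or noncoding RNA. The zinc finger protein ZFP57, with TRIM28, protects the methylated allele in embryonic stem cells and binds the hexamer TGCCGC where it is methylated, whereas CTCF binds the unmethylated allele of the control region upstream of H19. A peak list cannot tell the alleles apart, and a mark on 1 allele gives a peak just as a mark on both does, so the peaks cannot show whether the listed genes were imprinted in these cells.

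A promoter was taken as the TSS ±1 kb, over all isoforms of a gene. Of the 42 imprinted genes, 26 had a peak at a promoter (61.9%, 95% Wilson interval 46.8 to 75), beside 28.1% of all genes of any type. The list is rich in protein-coding genes, of which 23 of 34 had a promoter peak (67.6%), beside 51.9% of all protein-coding genes. Of the 8 noncoding members 3 had one (37.5%), beside 12.6% of all genes of other types. The other 16 members had no peak at a promoter and none in the gene body. No member had a peak in its body alone (0 of 42, Wilson upper bound 8.38%), a state seen in 2.98% of all genes. No test was made of these shares, since the members were chosen with results of these data known. The intervals cover counting error only and treat members as independent, although some share a peak.

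By parental allele, 19 of 27 paternally expressed members had a promoter peak (70.4%), 5 of 13 maternally expressed members had one (38.5%), and so did both members whose allele depends on the isoform, Gnas and Grb10. By germline DMR, 16 of the 19 members with such a region at a promoter had a peak (84.2%), against 9 of the 22 members without (40.9%). The shares of the maternally expressed members and of those without a germline DMR lay between the 28.1% of all genes and the 51.9% of protein-coding genes. The remaining member, Slc38a4, for which no germline DMR was assigned, had a peak as well. The 3 members with a germline DMR and no peak were Nnat, Nap1l5 and Peg13, all paternally expressed and all lying within an intron of another gene. A germline DMR was assigned to a gene and not to a position, so that the peak of a gene with several promoters can lie away from it. Among the 16, Inpp5f was marked at its first promoter alone and Grb10 at an internal promoter alone. Peg3, Usp29 and Airn, also among the 16, had no TSS inside a peak. The 2 splits are not independent, since the paternally expressed members hold most of the germline DMR promoters. Members that share a peak, such as Peg10 with Sgce and Peg3 with Usp29, were each counted, so the members are not independent units either.

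**Figure D1:**
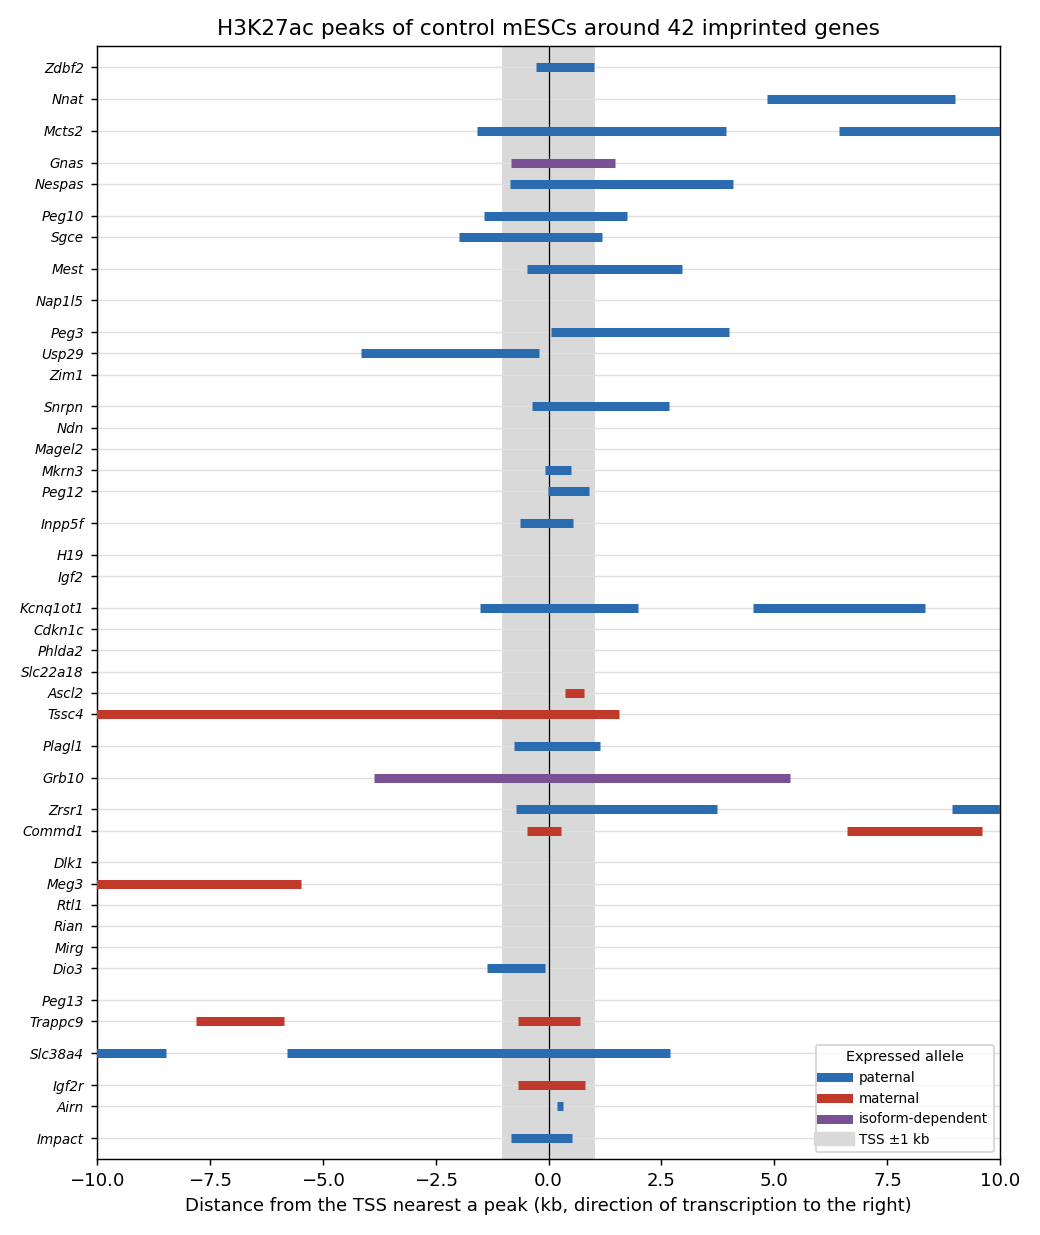
H3K27ac peaks (bars) within 10 kb of the TSS nearest a peak for each of the 42 imprinted genes, with distance in kb and transcription running to the right; colour gives the expressed allele, the shaded band is TSS ±1 kb and gaps between rows separate clusters. In 21 genes a TSS lay inside a peak, in 5 the nearest edge lay between 51 and 373 bp away, and the next nearest gene, Nnat, was 4833 bp from a peak.

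The TSS nearest a peak was measured for each gene. In 21 members a TSS lay inside a peak. In the other 5 marked members the nearest peak edge was 51 bp from a TSS for Peg3, 74 bp for Dio3, 197 bp for Airn, 210 bp for Usp29 and 373 bp for Ascl2. By its nearest TSS, no member lay between 373 bp and 4833 bp, the distance of Nnat. Other promoters of marked members did lie in that range, such as those of Gnas at 1.62 kb, Grb10 at 1.71 kb and Slc38a4 at 2.06 kb.

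The sequences below carry the arrangement of these promoters. The first 3 are the DNA between the divergent genes Sgce and Peg10 (chr6:4747208-4747305, plus strand), the DNA between the divergent genes Peg3 and Usp29 (chr7:6730432-6730577, plus strand), and the whole of the Airn peak, the narrowest at any member (chr17:12741595-12741722, plus strand). Capitals mark the ZFP57 hexamer TGCCGC or its reverse complement GCGGCA. All coordinates are of GRCm38, and none of these stretches overlaps an annotated exon.
Sgce to Peg10: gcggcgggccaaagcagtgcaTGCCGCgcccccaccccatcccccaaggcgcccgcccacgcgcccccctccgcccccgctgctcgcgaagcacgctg
Peg3 to Usp29: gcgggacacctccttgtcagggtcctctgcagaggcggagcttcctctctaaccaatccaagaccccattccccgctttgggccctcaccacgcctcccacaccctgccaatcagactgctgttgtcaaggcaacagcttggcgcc
Airn peak: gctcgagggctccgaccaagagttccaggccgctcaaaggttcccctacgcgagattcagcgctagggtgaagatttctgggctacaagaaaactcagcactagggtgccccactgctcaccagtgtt
The 98 bases between Sgce and Peg10 lay wholly inside a peak, had a GC content of 79.6% with 13 CpG dinucleotides, and held the hexamer 1 time. The 146 bases between Peg3 and Usp29 lay wholly outside any peak and held 5 CpG dinucleotides and no hexamer. The 128 bases of the Airn peak held 6 CpG dinucleotides and no hexamer.

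Peg10, a retrotransposon-derived gene needed in the placenta, and Sgce, which encodes epsilon-sarcoglycan, are both paternally expressed and start back to back. A single peak of 3162 bp (chr6:4745878-4749039) covered both TSSs of Peg10 and 10 of the 12 TSSs of Sgce. The other 2 TSSs of Sgce, inside the gene, were 5.67 and 20.2 kb from a peak. Sgce also held 2 peaks in its body, of 10764 and 1789 bp, so that 19.1% of the gene lay in peaks.

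Peg3, a zinc finger gene, and Usp29, a ubiquitin peptidase gene, also start back to back and are paternally expressed. Their peak of 3942 bp (chr7:6726427-6730368) lay entirely on the Peg3 side. It began 51 bp downstream of the nearest Peg3 TSS and reached into the Peg3 body, and it ended 210 bp upstream of the first Usp29 TSS. The 2 divergent pairs therefore differed in position, since the peak held both starts in the Peg10 pair and neither in the Peg3 pair. The remaining 3 promoters of Usp29, inside its span of 236642 bp, were 5.33 to 25.3 kb from a peak. Zim1, a maternally expressed zinc finger gene of the same cluster, had no peak within 29.4 kb of a TSS.

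Retrogenes and other genes nested in an intron of a host gene split into marked and unmarked ones. Mcts2, a retrogene of Mcts1 inside H13, lay wholly in a peak of 5510 bp (chr2:152685459-152690968), which also reached a promoter window of H13. Zrsr1, a splicing factor retrogene inside Commd1, had its 3 TSSs in a peak of 4450 bp (chr11:22971280-22975729), and 82.9% of the gene was in that peak. Nap1l5, a retrogene inside Herc3, had no peak within 74.4 kb, where the nearest peak was that of 815 bp at a Herc3 promoter. Nnat, which encodes a proteolipid and lies inside Blcap, was 4.83 kb from the nearest peak, which was 4168 bp wide and at a Blcap promoter. Peg13, a noncoding RNA inside Trappc9, was farthest of all members from a peak, at 250 kb, and that nearest peak was at the Trappc9 promoter. Each of these 5 host genes had a promoter peak, and 2 of the 5 nested genes did. The reverse held where Kcnq1ot1 lies within Kcnq1 and Tssc4 within Trpm5. Both members had a promoter peak, and both surrounding genes had body peaks alone, with promoters 6.99 and 3.22 kb from a peak. These body peaks were not separate ones throughout. That of Trpm5 was the Tssc4 peak itself, and those of Kcnq1 included the promoter peak and the body peak of Kcnq1ot1.

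Commd1, which encodes a COMM domain protein and is the maternally expressed host of Zrsr1, had 3 promoter peaks. That at its first promoter was 5372 bp wide (chr11:22980938-22986309), the second was the peak of Zrsr1, and the third was 761 bp wide at an internal TSS. A further peak of 2990 bp lay in its body. Trappc9, a subunit gene of a vesicle trafficking complex, had 1 peak of 1380 bp at its first promoter (chr15:73060348-73061727), and only 0.182% of its 471585 bp lay in peaks.

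**Figure D2:**
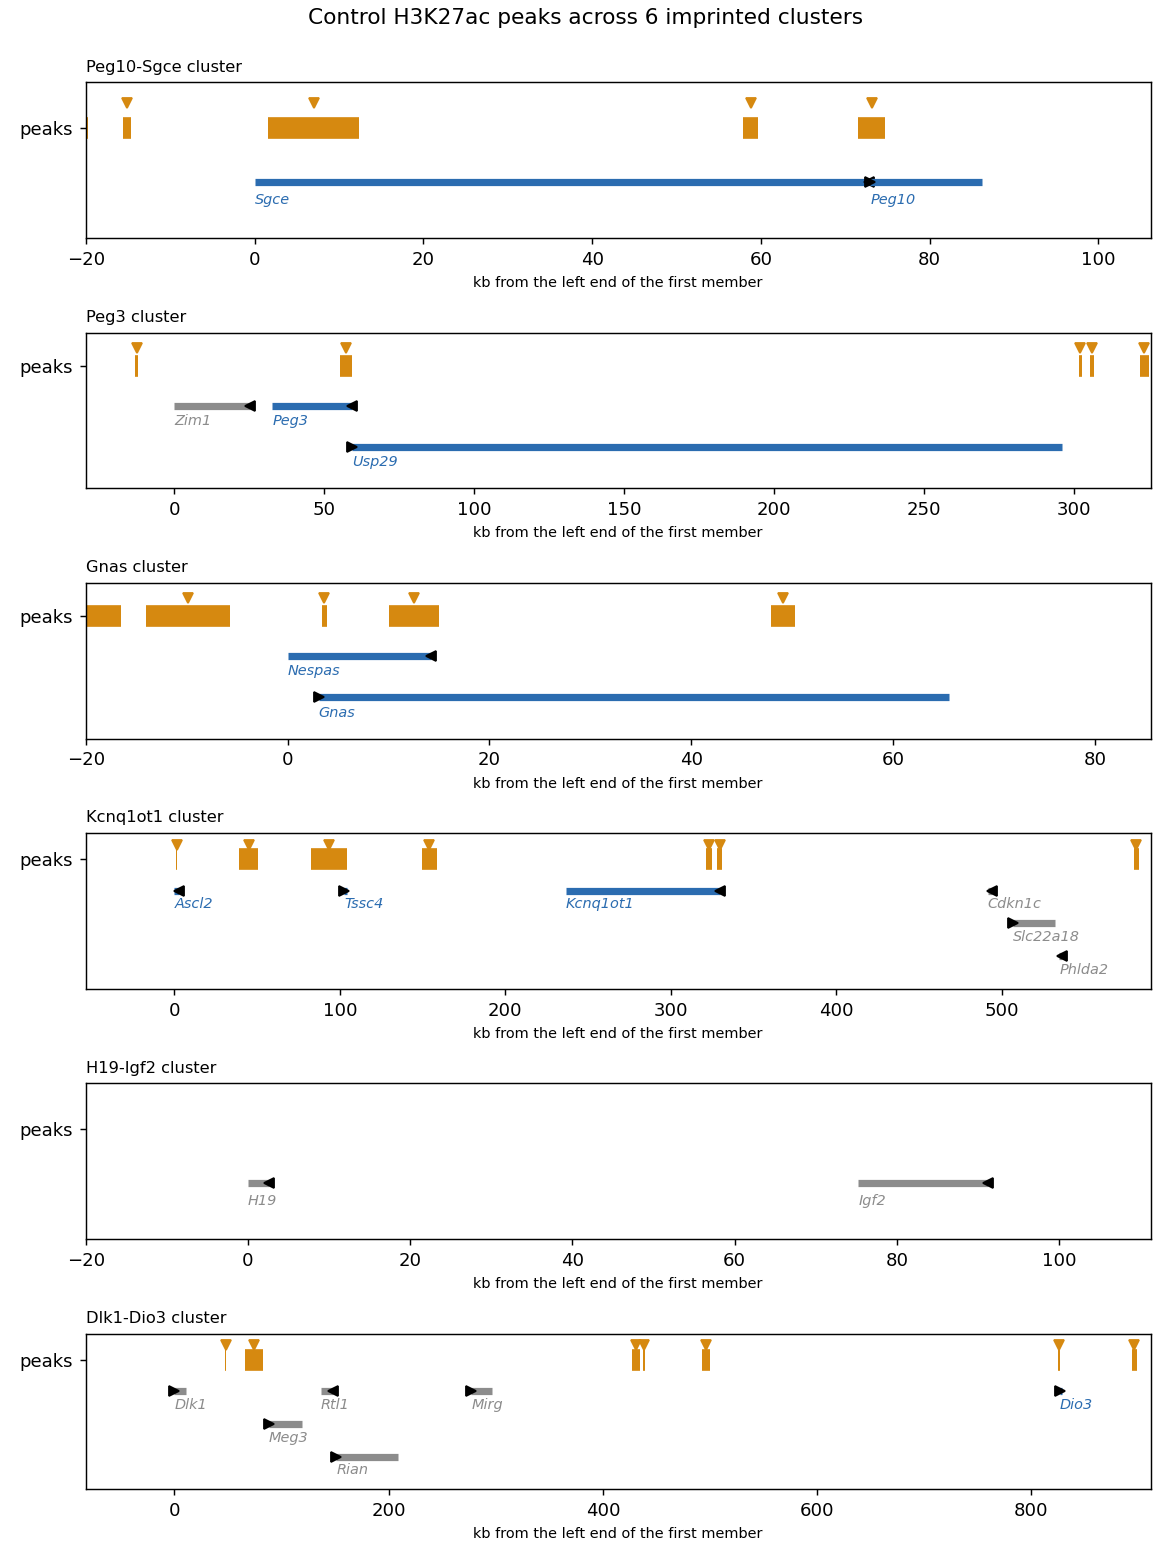
Control H3K27ac peaks (orange bars, each pointed at by a triangle) and imprinted genes (blue with a promoter peak, grey without; the arrowhead is at the 5′ end) in 6 clusters, in kb from the left end of the first gene. The Peg10-Sgce peak spans both gene starts, the Peg3 peak stops short of both, the H19-Igf2 cluster holds 0 peaks, and in the Dlk1-Dio3 cluster a peak of 16.9 kb lies between Dlk1 and Meg3.

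The Gnas locus encodes the stimulatory G protein alpha subunit and several imprinted transcripts with their own first exons. Its 16 TSSs fell into 5 promoters when TSSs no more than 2 kb apart were joined, and 2 of the 5 had a peak. The first, most upstream promoter was 125 bp from a peak of only 478 bp (chr2:174284654-174285131), which also reached a promoter of the antisense RNA Nespas. The second promoter was 1.62 kb from a peak and so unmarked. The third, with 10 TSSs, had 4 of them in a peak of 2317 bp (chr2:174329171-174331487). Its other TSSs lay upstream, 1.15 to 1.6 kb from that peak, and had no peak in their own windows. Nespas had 2 TSSs in another peak of 4930 bp (chr2:174291309-174296238), which counted as a body peak of Gnas.

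The other 2 antisense noncoding RNAs are repressors in cis of the genes around them. Kcnq1ot1, which is paternally expressed and antisense to Kcnq1, had its only TSS in a peak of 3487 bp (chr7:143294573-143298059) and a further peak of 3796 bp in its body (chr7:143288223-143292018). Airn, antisense to Igf2r, had at its promoters only the peak of 128 bp shown above, in an intron and 197 bp downstream of the nearest TSS. The promoter peak of Igf2r lay in its body. The 128 bp peak was narrower than all but 0.0891% of the promoter peaks of all genes. Igf2r, the maternally expressed receptor that clears insulin-like growth factor 2, had a peak of 1472 bp over its first TSS (chr17:12768857-12770328), while its other 2 promoters were 9.08 and 40.3 kb from a peak.

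In the Kcnq1ot1 cluster the maternally expressed genes were marked unevenly. Cdkn1c (a cell cycle inhibitor), Phlda2 (which restrains placental growth) and Slc22a18 (a transporter gene) lay in the same peak-free stretch of 249 kb, 85.5, 43.4 and 71.5 kb from the nearest peak. Ascl2, a transcription factor gene of the trophoblast, had a peak of 419 bp (chr7:142967926-142968344), 373 bp downstream of the nearest TSS. Tssc4, which encodes an assembly factor of the U5 snRNP, lay with all 7 TSSs in the widest peak at any member, 21646 bp (chr7:143049171-143070816), which also covered a promoter window of its neighbour Cd81. The cluster, from Ascl2 to Phlda2, held 6 peaks in 536 kb.

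Neither gene of the H19-Igf2 cluster had a peak. H19, a maternally expressed noncoding RNA, was 42.4 kb from the nearest peak, and Igf2, the paternally expressed insulin-like growth factor 2, was 119 kb from it. Both lay in a peak-free stretch of 434 kb. Because CTCF is known to bind the control region upstream of H19, the 10 kb upstream of H19 were searched on both strands for CCGCGNGGNGGCAG, a form of the CTCF motif. No mismatch was allowed outside the N positions, so CTCF sites that differ from this form were not listed. The 3 matches are shown 5′ to 3′ on the minus strand with the motif in capitals.
chr7:142580306-142580325: atgCCGCGTGGTGGCAGtac
chr7:142580761-142580780: ctaCCGCGCGGTGGCAGcat
chr7:142582031-142582050: ttgCCGCGTGGTGGCAGcaa
They lay 2.17, 2.62 and 3.89 kb upstream of H19 and 46.2 to 47.9 kb from the nearest peak. The same motif occurred 58 times on the chromosomes with peaks, and 27 of these matches (46.6%) touched an H3K27ac peak. None of the 3 matches at H19 did.

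In the Dlk1-Dio3 cluster 1 of 6 members was marked. This was Dio3, which encodes a thyroid hormone deiodinase and had a peak of 1291 bp (chr12:110277704-110278994) that ended 74 bp upstream of its TSS. Dlk1 (a transmembrane ligand of the delta family, 39.8 kb from a peak), Rtl1 (a retrotransposon-derived gene, 64.8 kb), Rian (host of snoRNAs, 68.4 kb) and Mirg (host of miRNAs, 132 kb) were far from any peak. Meg3, the maternally expressed noncoding RNA, was 5.47 kb downstream of a peak of 16894 bp (chr12:109518635-109535528), which lay between Dlk1 and Meg3 at no member's promoter. The germline DMR of this cluster is known to be intergenic and to lie between these genes. Meg3, Rtl1, Rian and Mirg shared 1 peak-free stretch of 344 kb. Over all 828 kb from Dlk1 to Dio3 there were 6 peaks, or 7.24 per Mb beside 8.43 per Mb of the genome. They covered 4.37% of the bases, beside 3.29% of the genome, and 16.9 of their 36.2 kb were in the peak upstream of Meg3. The 250 bases before the RefSeq start of Meg3 (chr12:109540746-109540995, plus strand, build GRCm38) are shown as an example of an unmarked promoter, again with the ZFP57 hexamer in capitals.
Meg3 upstream: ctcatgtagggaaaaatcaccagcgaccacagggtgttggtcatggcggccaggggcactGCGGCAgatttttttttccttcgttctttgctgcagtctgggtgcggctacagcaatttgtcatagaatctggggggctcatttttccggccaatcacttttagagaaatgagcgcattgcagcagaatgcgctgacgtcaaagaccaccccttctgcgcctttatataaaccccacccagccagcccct
They held 10 CpG dinucleotides and 1 hexamer, with none of the bases in a peak.

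In the Snrpn cluster 3 of 5 members were marked, and all 5 are paternally expressed. Snrpn, a gene of a small nuclear ribonucleoprotein, had a peak of 3029 bp (chr7:60002452-60005480) over its downstream TSS, which also reached a promoter window of Snurf, whereas its upstream TSS was 135 kb from a peak. At the other end of the cluster Mkrn3, an E3 ubiquitin ligase gene, had a peak of 581 bp (chr7:62419630-62420210) and Peg12, a gene of the Frat family, had one of 889 bp (chr7:62463623-62464511). The MAGE family genes Ndn and Magel2, 73.1 and 42.6 kb from the Mkrn3 peak, had none. No peak lay in the 2410 kb between those of Snrpn and Mkrn3. The cluster held 1.21 peaks per Mb, beside 8.43 per Mb of the genome, and 0.181% of its bases lay in peaks. The authors removed reads of low mapping quality, and how much of the cluster reads could be mapped to was not examined.

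Most marked genes with several promoters were marked at some of them. Of the 102 promoters of the 42 members, 37 had a peak (36.3%, Wilson interval 27.6 to 45.9), beside 22.7% of the promoters of all genes and 30.8% of those of protein-coding genes, the latter within that interval. Of the 17 marked members with 2 or more promoters, 15 had an unmarked promoter as well (88.2%), beside 88.7% of all such genes.

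Mest, an alpha/beta hydrolase gene, had 4 promoters. A peak of 3426 bp (chr6:30737576-30741001) lay at the third and the fourth, and the upstream pair was 14 and 4.07 kb from it. Plagl1, the zinc finger transcription factor Zac1, was the only member with 4 promoters of which all had a peak, in 3 peaks of 785, 1916 and 12726 bp. Inpp5f, an inositol phosphatase gene of which a short variant is imprinted, had a peak of 1185 bp at its first promoter (chr7:128610696-128611880). Its 5 internal promoters were 36.1 to 55.8 kb from a peak. Inpp5f thus counted as marked through its first promoter alone, and the promoter of the imprinted variant was not assigned here. Grb10, an adaptor of insulin and growth factor receptors, was marked at 1 of 6 promoters, an internal one in the part toward its 3′ end that lay in a peak of 9202 bp (chr11:11940988-11950189). The first 2 promoters of Grb10, where its main isoforms start, were 63.9 and 52.8 kb from a peak. Its body held 2 further peaks, of 7987 and 1113 bp.

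Of the remaining members, Zdbf2, a zinc finger gene, had a peak of 1285 bp (chr1:63272982-63274266) at its first promoter and none at its second. Slc38a4, an amino acid transporter gene, had a peak of 8484 bp (chr15:97047390-97055873) at its first and second promoters, and 2 peaks in its body. Impact, a regulator of translation on chromosome 18, had a peak of 1367 bp at its first promoter and one of 3685 bp over the next 2 promoters, inside the gene.

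Peaks were often shared between genes. Of the 26 marked members, 17 had a promoter peak that reached a promoter window of at least 1 other gene (65.4%), beside 52.4% of all marked genes. Partners that were not members included Gm11608 and Gm24513 at Zdbf2, Mir335 at Mest, Gm27539 and Gm37364 at Kcnq1ot1, Gm27741 at Plagl1, Dio3os and Mir1247 at Dio3, and Gm23833 at Igf2r. Further genes at these peaks were Gm27849 and Gm27869 at Nespas, Gm27675 at Peg3 and Usp29, Gm38393 at Snrpn, R74862 at Tssc4 and Gm28048 at Commd1. Of the 29 peaks at member promoters, 4 lay at promoters of 2 members. These were the peaks of Peg10 and Sgce, Peg3 and Usp29, Gnas and Nespas, and Zrsr1 and Commd1. Peaks were also shared with H13 (by Mcts2), Snurf (by Snrpn) and Cd81 (by Tssc4), which were not members.

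**Figure D3:**
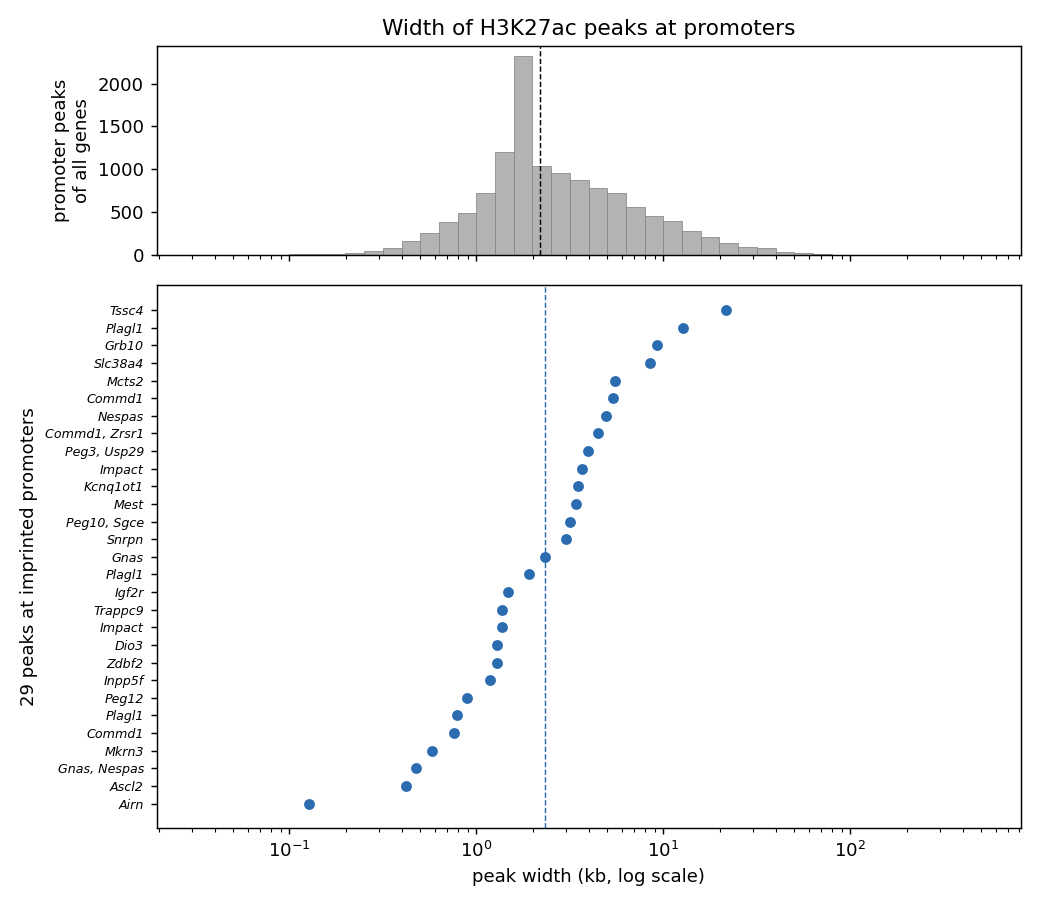
Width of promoter peaks in kb on a log axis, as the number of promoter peaks of all genes (top, dashed line at their median) and for each of the 29 peaks at imprinted promoters (bottom, dashed line at their median, rows named by the members they touch). Imprinted peaks ran from 128 bp at Airn to 21646 bp at Tssc4, around a median of 2317 bp, close to the 2182 bp of all promoter peaks.

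The 29 peaks at imprinted promoters had a median width of 2317 bp (95% interval of the median 1285 to 3942 bp), and the 12339 promoter peaks of all genes had one of 2182 bp, inside that interval. Narrow peaks made up 7 of the 29 (24.1% were narrower than 1 kb, Wilson interval 12.2 to 42.1), beside 11.9% of all promoter peaks. These were the peaks of Airn, Ascl2, Mkrn3 and Peg12, the peak shared by Gnas and Nespas, and 1 each of Plagl1 and Commd1. Peaks of 10 kb or more made up 2 of 29 (6.9%), beside 10.1% of all. The authors joined peaks within 2 kb of each other, so a width can span several enriched stretches.

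**Figure D4:**
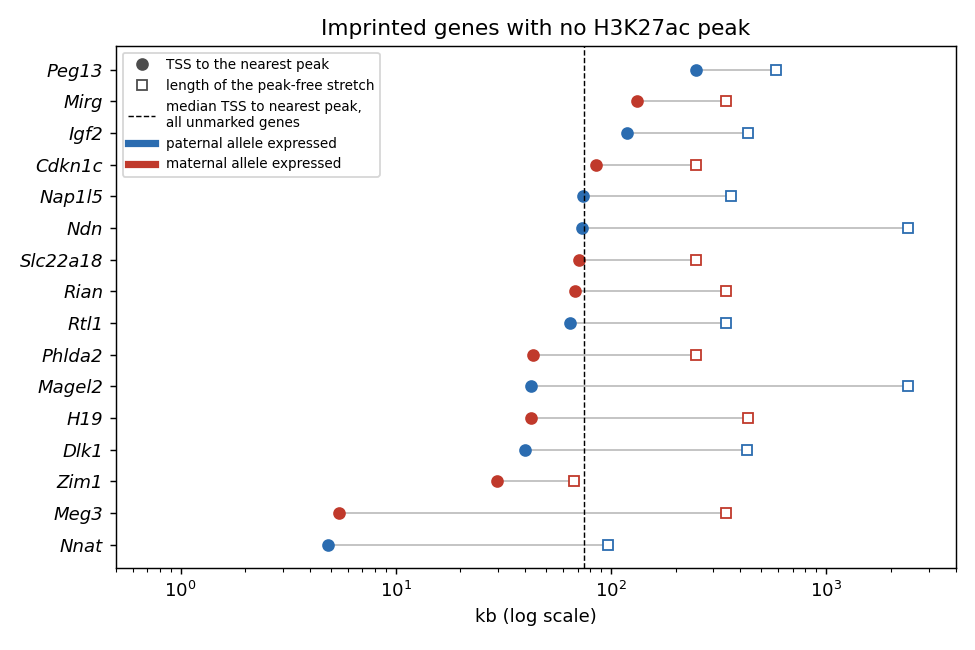
The 16 imprinted genes with no H3K27ac peak, with the distance from a TSS to the nearest peak (filled circles) and the length of the peak-free stretch around it (open squares) in kb on a log axis; colour gives the expressed allele and the dashed line is the median distance of all genes with no peak, 75 kb. Distances ran from 4.83 kb for Nnat to 250 kb for Peg13, on both sides of the dashed line.

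The 16 unmarked members lay at very different distances from a peak. The distance from a TSS to the nearest peak ran from 4.83 to 250 kb with a median of 66.6 kb, and the median was 75 kb over the 38171 genes of any type with no peak and 70.5 kb over the protein-coding ones. They lay in 9 separate peak-free stretches of 67.2 to 2410 kb.

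The base composition of the promoters was then compared, since the rule did not use it. In the 2001 bases around the first TSS of each promoter, the 37 marked promoters had a median GC content of 52.4% and a median CpG ratio (observed over expected) of 0.62, and all marked promoters had 52.7% and 0.57. The 33 promoters of members with no peak had 48.7% and 0.27, and the 32 unmarked promoters of marked members had 43.7% and 0.22. All unmarked promoters had 44.2% and 0.20. A promoter counted as marked through any of its TSSs, so the window around its first TSS need not touch a peak, as at the third promoter of Gnas. Promoters of 1 gene lie close together and pairs of members share windows, so these promoters are not independent of each other.

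The ZFP57 hexamer TGCCGC was counted on both strands in the same windows. It occurred at least 1 time in 25 of the 37 marked promoters (67.6%), beside 51% of all marked promoters, and in 23 of the 65 unmarked promoters of members (35.4%), beside 19.1% of all unmarked ones. Over all 79373 promoters 26.3% held it. The highest counts among members were 12 at the third promoter of Mest, 10 at the Snrpn promoter with a peak, and 6 each at promoters of Plagl1, Peg3, Inpp5f, Nnat and Peg13. Of these, the promoters of Nnat and Peg13 and the last promoter of Inpp5f had no peak. Nap1l5, also unmarked, had 5, as many as the marked promoters of Airn and Nespas. Dense hexamers thus occurred both at promoters with a peak and at promoters without one. Within peaks, those at imprinted promoters held 0.66 hexamers per kb, beside 0.27 per kb in all promoter peaks. A few members carried this density, since the peaks of Mest (11), Snrpn (10), Peg3 and Usp29 (8) and Plagl1 (6) held 35 of the 72 hexamers. The share of peaks with at least 1 hexamer was 65.5% (19 of 29), beside 59.7% of all promoter peaks. A match to these letters does not show that ZFP57 was bound.

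**Figure D5:**
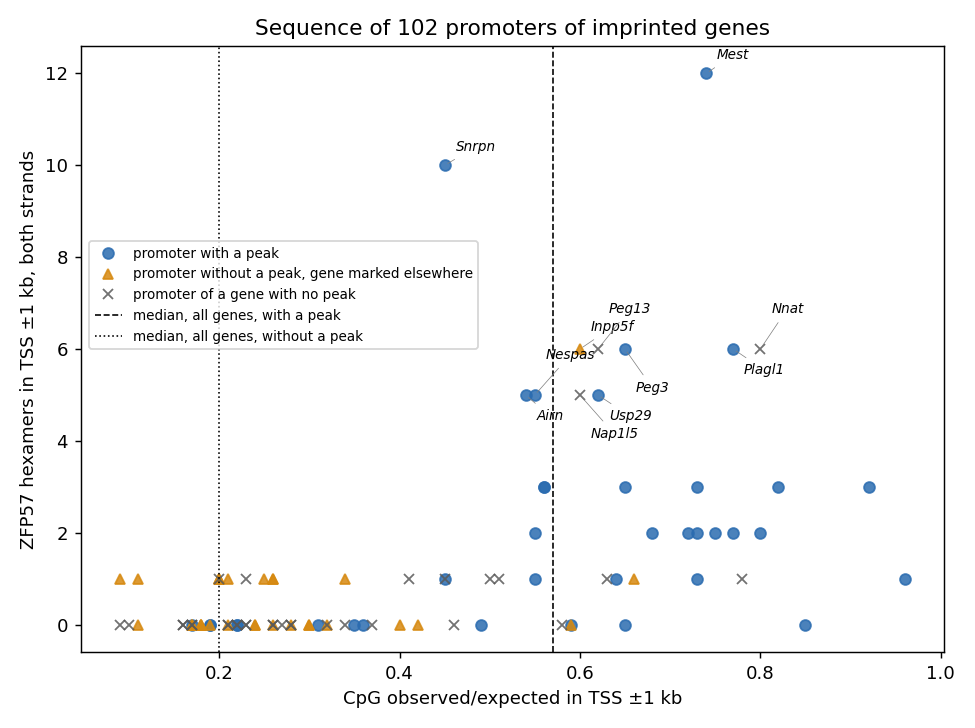
CpG ratio (observed over expected) against the number of ZFP57 hexamers in TSS ±1 kb for the 102 promoters of imprinted genes, marked by a peak (blue circles), unmarked in a gene marked elsewhere (orange triangles) or in a gene with no peak (grey crosses); vertical lines are the medians of all promoters with (0.57) and without (0.20) a peak. The promoters with 5 or more hexamers, which are named, include marked ones such as Mest and Snrpn and the unmarked ones of Nnat, Nap1l5, Peg13 and Inpp5f.

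To show these hexamers, the 200 bases richest in them outside annotated UTRs were taken from 4 peaks and from the promoter windows of 2 unmarked members, read on the strand of the gene, in GRCm38. They are from the peaks of Snrpn (chr7:60004325-60004524, minus), Mest (chr6:30737576-30737775, plus), Peg3 (chr7:6729973-6730172, minus) and Plagl1 (chr10:13091058-13091257, plus), and from the windows of Nap1l5 (chr6:58906688-58906887, minus, in its exon) and Peg13 (chr15:72809858-72810057, minus, in its exon). Capitals mark TGCCGC or GCGGCA.
Snrpn, in a peak: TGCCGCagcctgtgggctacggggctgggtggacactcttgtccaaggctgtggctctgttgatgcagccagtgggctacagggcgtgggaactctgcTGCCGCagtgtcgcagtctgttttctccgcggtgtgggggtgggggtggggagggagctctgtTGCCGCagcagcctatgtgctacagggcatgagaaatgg
Mest, in a peak: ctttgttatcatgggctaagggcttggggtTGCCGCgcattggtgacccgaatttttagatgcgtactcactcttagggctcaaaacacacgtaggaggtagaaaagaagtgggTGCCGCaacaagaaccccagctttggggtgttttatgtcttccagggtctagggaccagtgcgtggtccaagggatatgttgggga
Peg3, in a peak: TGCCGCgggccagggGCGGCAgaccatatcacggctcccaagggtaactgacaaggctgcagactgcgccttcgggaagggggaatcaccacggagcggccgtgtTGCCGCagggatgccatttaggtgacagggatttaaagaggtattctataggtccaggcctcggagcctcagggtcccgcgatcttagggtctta
Plagl1, in a peak: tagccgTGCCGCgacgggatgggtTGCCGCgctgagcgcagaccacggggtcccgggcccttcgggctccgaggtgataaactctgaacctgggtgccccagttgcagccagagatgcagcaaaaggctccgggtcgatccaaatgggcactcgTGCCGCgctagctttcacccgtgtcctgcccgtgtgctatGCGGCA
Nap1l5, no peak: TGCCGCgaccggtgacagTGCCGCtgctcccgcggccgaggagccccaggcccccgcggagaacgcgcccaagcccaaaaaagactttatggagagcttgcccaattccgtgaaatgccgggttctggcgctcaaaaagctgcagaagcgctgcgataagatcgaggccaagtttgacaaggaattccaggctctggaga
Peg13, no peak: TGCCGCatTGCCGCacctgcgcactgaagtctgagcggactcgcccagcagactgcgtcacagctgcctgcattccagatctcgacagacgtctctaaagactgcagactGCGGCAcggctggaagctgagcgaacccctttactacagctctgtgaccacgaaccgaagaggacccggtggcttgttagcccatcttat
The stretches held 3 hexamers in Snrpn, 2 in Mest, 3 in Peg3, 4 in Plagl1, 2 in Nap1l5 and 3 in Peg13. In Snrpn the hexamer recurred as TGCCGCag on the strand of the gene, and in Plagl1, Peg3 and Peg13 it occurred on both strands.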

How the data were processed

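H3K27ac ChIP-seq was made in DMSO-treated, NVP-2-treated and ActD-treated mESCs, 2 replicates each, and groups were taken from the sample labels. Per the methods and the submitters' processing notes, the authors trimmed reads with cutadapt and aligned them with BWA to mm10 and the human genome together. They removed duplicates with Picard 2.9.1 and reads of low mapping quality with SAMtools 1.4. Peaks were called with LanceOtron, joined within 2 kb and removed by height and by distance to ATAC-seq summits. The deposited list, pooled over both control replicates, gives chromosome, start and end in base pairs without a score, so a region below a threshold cannot be told apart from one without signal, and the depth cannot be read from it. Peaks were compared with GENCODE M21 (GRCm38, the build of the list). All genes outside the mitochondrial genome were used, an overlap of at least 1 bp counted, and TSSs of a gene no more than 2 kb apart were joined into 1 promoter. A body peak overlapped the gene and none of its promoter windows. Sequences were read from the RefSeq copy of GRCm38, and 1 from the RefSeq promoter table.

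The members, their alleles and DMRs and the other lists were written from general knowledge and chosen with earlier results of these data known. All members are named, as is any gene sharing a promoter peak with them; Herc3, Blcap, Kcnq1 and Trpm5 as hosts or neighbours of members were named after their values were seen, and so were the sequences shown. No test was made. Wilson intervals have a confidence level of 95%, and the interval of the median is by order statistics. The 9 alternatives are given at the end. Overlap functions were tested on simulated data. Python 3.11.15, numpy 2.4.6, scipy 1.17.1 and matplotlib 3.10.9 were used.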

Additional observations from a re-analysis of the deposited data

How the results depend on the processing

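The count of members with a promoter peak was 26 with windows of ±500 bp or ±2 kb, and 21 to 25 with the TSS alone inside a peak (without Peg3, Usp29, Ascl2, Dio3 and Airn), the longest isoform (without Mest, Snrpn and Grb10), GENCODE basic transcripts (without Grb10), protein_coding and lincRNA genes and transcripts (22 of 37, Grb10 lost), an overlap of 500 bp (without Ascl2 and Airn) or peaks of at least 1 kb (without Mkrn3, Peg12, Ascl2 and Airn). No member gained a promoter peak under any of these. Members with a body peak alone rose from 0 to 3 with the TSS alone and with the longest isoform, and to 1 with each of the basic transcripts, the protein_coding and lincRNA types, the 500 bp overlap and the 1 kb width. Peaks at promoters of 2 or more members fell from 4 to 2 with the TSS alone, the longest isoform and the protein_coding and lincRNA types, and to 3 with basic transcripts, the 500 bp overlap and the 1 kb width, and rose to 5 with windows of ±2 kb. Among the 18 members whose promoter windows met no other gene's, 10 had a promoter peak (55.6%) and 8 had no peak, with 0 shared peaks, which follows from the smaller set. Of all genes of that kind 19.3% had a promoter peak, and 41.8% of the protein-coding ones. The median width stayed within its interval in all 9 alternatives, from 1380 to 3456.5 bp. The share of all genes with a promoter peak was 43.4% for protein_coding and lincRNA genes, against 28.1% for any type. No paired analysis was possible because both control replicates were pooled, and so none could be left out. The list limits every count to presence or absence of a peak, without height, allele or treatment, and it does not show how far each replicate supports a peak, such as the narrow one of Airn.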

Other observations

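Of 10 genes of the machinery that keeps imprints, 9 had a promoter peak, beside 51.9% of all protein-coding genes, namely Zfp57 and Zfp445 (zinc finger proteins that bind imprinted DMRs), Trim28 and Setdb1 (their corepressor and its histone methyltransferase), Dnmt1 and Uhrf1 (maintenance of DNA methylation), Ctcf, Dnmt3a and Dnmt3l. The widest promoter peak was 47651 bp at Zfp57 and 32426 bp at Trim28, and only 718 bp at Zfp445. Dppa3, which protects maternal methylation in the early embryo, was 6.21 kb from the nearest peak. Of the embryonic stem cell markers 9 of 10 had a promoter peak, all but Klf4, which was 14.1 kb from one, and of 10 markers of other cells 2, Gata6 and Sox1, did, beside the same 51.9%.

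Of 44 neighbours of the clusters found in the annotation (of 45 listed), 24 had a promoter peak (54.5%, Wilson interval 40.1 to 68.3), beside 51.9% of all protein-coding genes and 28.1% of genes of any type. The members' 61.9% and the protein-coding share both lie within this interval, and no test was made.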
